A study of Mus musculus with 12 samples.

Results

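L1Md_Gf and the L1Md_F names are families of the LINE-1 (L1) retrotransposon in the repeat annotation of the mouse genome. They were taken as every repeat whose name starts with L1Md_G or L1Md_F, which gave 4 names (L1Md_Gf, L1Md_F, L1Md_F2 and L1Md_F3) of 1528 in the subfamily table. The locus tables list 435 loci of L1Md_Gf, 929 of L1Md_F, 14325 of L1Md_F2 and 2756 of L1Md_F3, in all 18445 of 781935 repeat loci. Their identifier numbers run up to 1077, 3988, 64714 and 16093, so the tables may leave out loci that the subfamily table counts, and every share or sum of loci below is over the listed ones. The study sequenced RNA that sediments and precipitates with ORF1p in mouse testes, 12 libraries in all. All 12 came from testes of C57BL/6 mice labelled Mael-/- with an age label of 3 months, so the libraries compared here hold no control genotype. TOTAL is RNA of the clarified testis lysate brought to 10 mM EDTA, which takes ribosomes apart. INPUT is RNA of the pooled fractions 5 to 8 of that lysate on a sucrose gradient of 10 to 50%. IP is RNA pulled from INPUT on beads coupled to a rabbit monoclonal anti-ORF1p antibody, and BO is RNA that stayed on beads incubated with the same pool but carrying no antibody. Each group has 3 libraries. The labels do not say whether these came from separate animals, so p-values measure only the spread between these libraries.

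L1 elements copy themselves through an RNA that encodes 2 proteins, ORF1p, an RNA-binding protein and chaperone, and ORF2p, an endonuclease and reverse transcriptase. Both proteins tend to bind the RNA that encoded them. MAEL is a factor of the piRNA pathway, which silences L1 in male germ cells. Mouse L1 families are named after the repeated promoter units at their start, and the A, T and Gf families are the young ones with members able to move, whereas the F names label older families. No sequence or position of single loci is given here, since the locus tables hold no sequences or coordinates.

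Library depth differed between groups. A TOTAL library held 6021800 to 7282171 recovered reads on repeats, and an INPUT library 3045169 to 3880641. The range was 1712212 to 3512997 in BO and 1384904 to 2003193 in IP. LSU rRNA held 52.1% of the reads in BO replicate 3, and 7SL RNA held between 38.1% and 51.6% in TOTAL against 1.16% to 1.63% in IP. Mael itself had an authors' mean of 0.65 in TOTAL, 0.50 in BO and 0 in INPUT and IP. All 5 spermatocyte markers and both germ cell markers (Ddx4 and Dazl) were present in TOTAL. The 4 spermatid markers lay between 11.7 and 39.3 in TOTAL, and spermatogonia, Sertoli and Leydig cell markers were present. For these levels in TOTAL, the bulk lysate, fewer cells of a type and less RNA per cell cannot be told apart. In the table of IP and TOTAL, the summed markers of spermatocytes were 127605 in IP and 19734 in TOTAL, and those of germ cells 69715 and 16505. The other sums were lower in IP, at 3.04 against 103 for spermatids, 765 against 2325 for spermatogonia, 2754 against 7048 for Sertoli cells and 9968 against 59939 for Leydig cells. In the table of IP and BO, the spermatocyte sum was 97898 in IP and 7968 in BO, and the Leydig cell sum 7627 and 4133. The germ cell sum was 53442 in IP and 9375 in BO, and the spermatid sum 2.32 and 0.921, with Tnp1 lower in IP (0.552 and 0.921). Lower in IP were the Sertoli cell sum, at 2107 against 5705, and the spermatogonia sum, at 586 against 943. Single markers of both lists differed in direction. Wt1, Sox9 and Zbtb16 (309 in IP, 826 in BO) were lower in IP. Rhox5 (93.1 and 56.2), Amh (39.1 and 32.9), Uchl1 (225 and 77.4) and Gfra1 (51.7 and 39.2) were higher in IP. What part such differences in cell type markers have in the results was not tested.

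L1Md_Gf RNA stood several-fold higher in IP than in any other group. The count used was scaled by the authors to the upper quartile of each library. This normalized count of L1Md_Gf was 3946 in IP replicate 1, 2595 in replicate 2 and 2005 in replicate 3. The same count was 850, 584 and 664 in BO replicates 1 to 3, 797, 627 and 548 in INPUT replicates 1 to 3 and 1137, 787 and 690 in TOTAL replicates 1 to 3. Every IP library lay above every other library, and the IP libraries also differed most among themselves (2849 ± 995 in IP, SD, n = 3, against 871 ± 235 in TOTAL, SD, n = 3). These values rest on between 414 and 2683 reads per library. Over BO, the log2 fold change, fitted on the normalized count plus 1, was 1.99 (standard error 0.25, 95% interval 1.44 to 2.53, adjusted p = 8.80e-05 from limma). Against INPUT it was 2.07 (interval 1.53 to 2.62, adjusted p = 0.000109 from limma) and against TOTAL 1.68 (interval 1.14 to 2.23, adjusted p = 0.000617 from limma). Among the 1180 subfamilies tested, L1Md_Gf took rank 14 by log2 fold change over BO, rank 1 over INPUT and rank 14 over TOTAL.

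**Figure D1:**
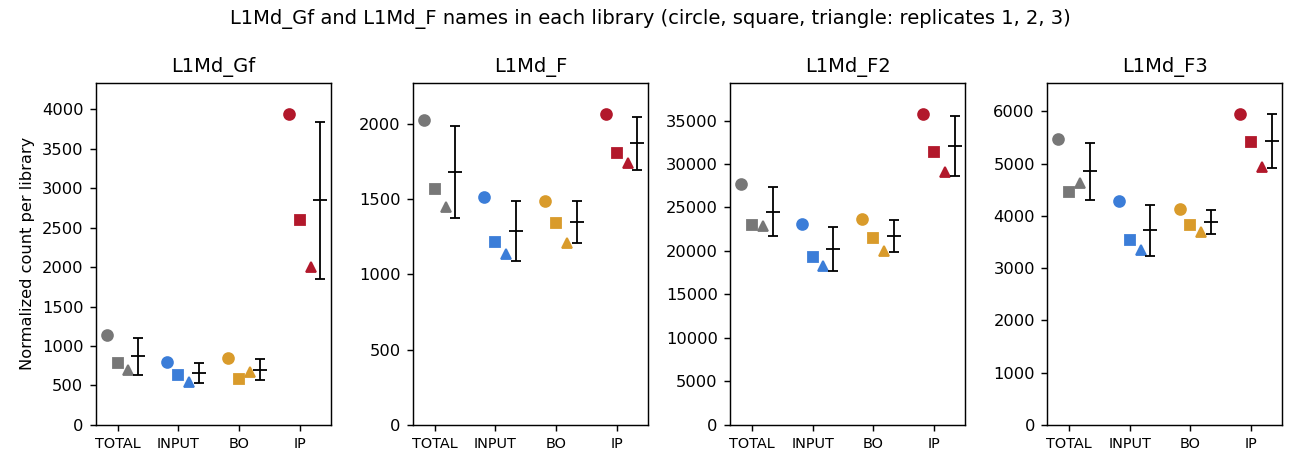
Upper-quartile normalized count of each name (vertical axis, linear, a separate scale per panel) in the 12 libraries by group, with symbols for replicates and a bar for the mean ± SD of 3 libraries. L1Md_Gf runs from 2005 to 3946 in IP and from 548 to 1137 elsewhere, while the IP libraries of L1Md_F and L1Md_F3 overlap with TOTAL.

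L1Md_F, the F name with the fewest loci, had a normalized count of 2067, 1803 and 1738 in IP replicates 1 to 3. It was 1487, 1341 and 1211 in BO, 1513, 1216 and 1135 in INPUT and 2027, 1566 and 1450 in TOTAL, each in the order of replicates 1 to 3. IP lay above BO and INPUT in every library but overlapped with TOTAL. Its log2 fold change was 0.47 against BO (adjusted p = 0.0202 from limma), 0.54 against INPUT (adjusted p = 0.0131 from limma) and 0.16 against TOTAL (adjusted p = 0.451 from limma). The adjusted p against BO, from limma, was above 0.05 without BO replicate 2 (0.0531), BO replicate 3 (0.0725) or IP replicate 1 (0.0852). Against INPUT it did so without INPUT replicate 3 (0.0554) or IP replicate 1 (0.0549).

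L1Md_F3 followed the same pattern. Its normalized count was 5954, 5416 and 4932 in IP replicates 1 to 3, 4138, 3825 and 3690 in BO, 4274, 3545 and 3355 in INPUT and 5462, 4464 and 4620 in TOTAL. The IP libraries were again above all of BO and INPUT and overlapped with TOTAL. The log2 fold change was 0.48 against BO (adjusted p = 0.00447 from limma), 0.55 against INPUT (adjusted p = 0.00300 from limma) and 0.17 against TOTAL (adjusted p = 0.311 from limma).

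L1Md_F2, by far the most numerous of the 4 names, had a normalized count of 35788, 31395 and 29065 in IP replicates 1 to 3. It was 23707, 21456 and 19984 in BO, 23093, 19353 and 18235 in INPUT and 27753, 22956 and 22821 in TOTAL. Here the IP libraries lay above all others, including TOTAL. The 95% intervals of the log2 fold change ran from 0.31 to 0.82 against BO, from 0.41 to 0.92 against INPUT and from 0.13 to 0.64 against TOTAL. The adjusted p against TOTAL, from limma, was above 0.05 without TOTAL replicate 2 (0.106), TOTAL replicate 3 (0.0973), IP replicate 1 (0.124) or IP replicate 2 (0.0754).

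A name was called when its log2 fold change passed 1 in either direction and its adjusted p from limma was under 0.05. By this rule 1 of the 4 names, L1Md_Gf, was higher in IP than in BO, where 5.08% of the 1180 subfamilies were called higher and 3.81% lower. It was also the 1 of 4 called higher against INPUT (3.22% of all subfamilies higher, 2.88% lower) and against TOTAL (2.88% higher, 3.47% lower). No F name was called in any of these 3 comparisons, since their fold changes stayed under the threshold. That depends on the scaling. With libraries scaled to their totals, which moved the median subfamily to 0.36 against BO, 0.47 against INPUT and 1.49 against TOTAL, L1Md_F2 was called in all 3 (1.06, 1.21 and 1.94). L1Md_F and L1Md_F3 were then called against INPUT (1.09 each) and TOTAL (1.71 and 1.72). Under that scaling 10.6% of all subfamilies were called higher against BO, 10.7% against INPUT and 85.9% against TOTAL. By the adjusted p alone, all 4 names were higher in IP than in BO (11.3% of all subfamilies) and than in INPUT (11%). Against TOTAL, 2 of 4 were higher by that rule, L1Md_Gf and L1Md_F2 (10.2% of all). Fitted on IP and TOTAL alone, the adjusted p of L1Md_F2 was 0.0594 from limma.

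**Figure D2:**
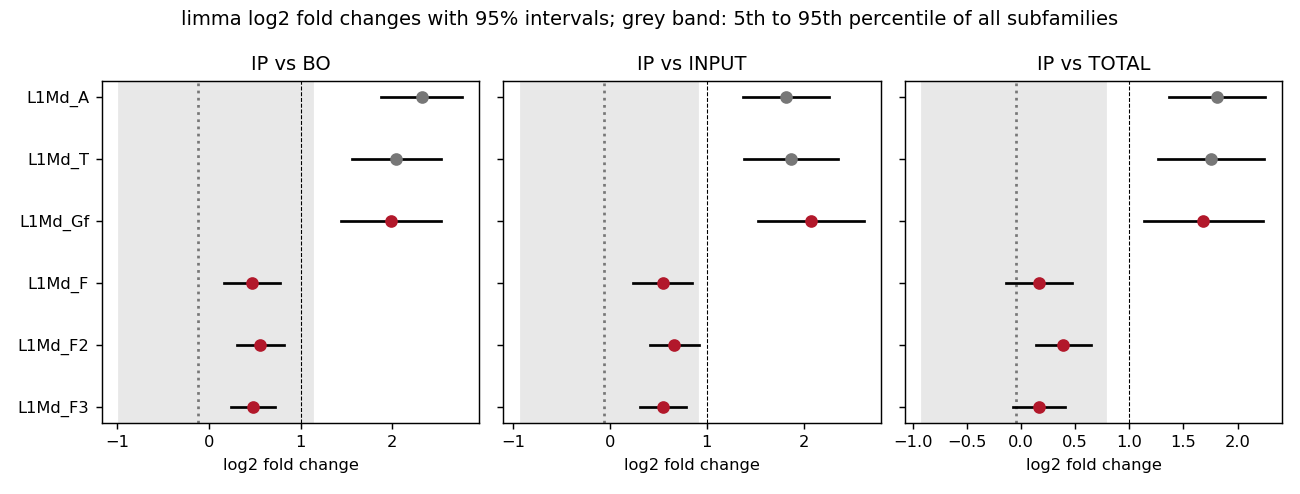
log2 fold change (horizontal axis) of the 4 names, in red, and of L1Md_A and L1Md_T, in grey, for IP over BO, INPUT and TOTAL, with 95% intervals from limma, the median of 1180 subfamilies (dotted) and the call threshold of 1 (dashed). The intervals of L1Md_Gf lie above 1 in all 3 panels and those of the F names below it.

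None of the 4 names was called between TOTAL, INPUT and BO by the rule with the fold threshold. From TOTAL to INPUT, the log2 fold change was -0.39 for L1Md_Gf, -0.38 for L1Md_F, -0.28 for L1Md_F2 and -0.38 for L1Md_F3, with adjusted p between 0.0956 and 0.477 from limma. The interval for L1Md_Gf ran from -0.94 to 0.16. Same-numbered INPUT and TOTAL libraries deviated together, with correlations from 0.32 to 0.63 in 3 of 3 pairs. INPUT replicate 3 also correlated with TOTAL replicate 2 (0.33), and INPUT replicate 2 with TOTAL replicate 3 (0.24). The correlations thus set replicate 1 apart but do not show how replicates 2 and 3 pair. With the replicate number as a block in a limma fit of these 2 groups, added after the data had been seen, all 4 names were lower in INPUT (adjusted p = 0.00849 for L1Md_Gf, 0.00286 for L1Md_F, 0.00476 for L1Md_F2 and 0.00202 for L1Md_F3), as were 7.63% of all subfamilies. With the block over all 12 libraries the adjusted p from limma was 0.0702, 0.0103, 0.00940 and 0.00619 in the same order, and 2.71% of all subfamilies were lower. Of all subfamilies, 0% were called higher and 0.339% lower in INPUT than in TOTAL. The ratio of L1Md_Gf to L1Md_F2 differed by -0.11 on the log2 scale from TOTAL to INPUT (adjusted p = 0.648 from limma) and by -0.02 from INPUT to BO (adjusted p = 0.960 from limma). On bare beads against INPUT, log2 fold changes lay between 0.07 and 0.11 with adjusted p between 0.551 and 0.854 from limma. In that comparison 2.63% of all subfamilies were called higher and 2.8% lower. In BO vs. TOTAL they lay between -0.32 and -0.17, with adjusted p from 0.0511 to 0.412 from limma, where 2.71% of all subfamilies were called higher and 3.9% lower. With the block over all 12 libraries, the adjusted p from limma in BO vs. TOTAL was 0.0644 for L1Md_Gf, 0.00499 for L1Md_F, 0.0183 for L1Md_F2 and 0.00241 for L1Md_F3, and 11.5% of all subfamilies were lower by adjusted p alone. Same-numbered libraries of these groups deviated together in 2 of 3 pairs. Scaling each library to its total turned the sign for all 4 names in INPUT vs. TOTAL and in BO vs. TOTAL.

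The G and F names were then compared with each other inside each library, which cancels any scaling of the library. For every read on the 3 F names together, L1Md_Gf had 0.0901 reads in IP replicate 1, 0.0672 in replicate 2 and 0.0561 in replicate 3. The same ratio was 0.0290, 0.0219 and 0.0267 in BO replicates 1 to 3, 0.0276, 0.0260 and 0.0241 in INPUT and 0.0322, 0.0271 and 0.0239 in TOTAL. The 3 IP libraries were the highest of the 12. On the log2 scale, mean and SD over 3 libraries were -3.84 ± 0.34 in IP, -5.28 ± 0.21 in BO, -5.27 ± 0.10 in INPUT and -5.18 ± 0.22 in TOTAL. The difference between IP and the other 9 libraries was 1.40 (two-sided exact permutation test, p = 0.00454545, the smallest the design allows, 0.0333 after Benjamini-Hochberg adjustment over 44 comparisons of ratios). This and the other permutation tests against the 9 libraries treat them as independent, although same-numbered INPUT and TOTAL libraries deviated together. Against single groups of 3 the exact permutation p was 0.1, which is the smallest it can be. The differences were 1.44 to BO, 1.43 to INPUT and 1.34 to TOTAL.

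Set against L1Md_F alone, L1Md_Gf went from fewer to more reads. The ratio of their reads ranged from 0.435 to 0.571 over the 9 libraries of BO, INPUT and TOTAL and from 1.15 to 1.91 over the 3 IP libraries. Set against L1Md_F2 in a limma fit of ratios over all subfamilies, L1Md_Gf was higher in IP than in BO by 1.42 on the log2 scale (interval 1.05 to 1.79, adjusted p = 1.14e-05 from limma). The difference was 1.41 against INPUT (adjusted p = 2.53e-05 from limma) and 1.29 against TOTAL (adjusted p = 7.94e-05 from limma). In that fit, 3.82% of the 1179 other subfamilies rose relative to L1Md_F2 from BO to IP, 1.61% from INPUT and 3.05% from TOTAL. These tests use the same IP libraries, so they are not independent of each other.

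Without a replicate block, and with subfamilies kept from a mean of 10, no ratio between the F names passed its test. The log2 ratio of L1Md_F to L1Md_F3 was -1.54 ± 0.04 in IP (SD, n = 3) and -1.53 ± 0.07 over the other 9 libraries (exact permutation p = 0.918). Relative to L1Md_F2, the log2 difference of L1Md_F was -0.09 from BO to IP, -0.12 from INPUT and -0.23 from TOTAL, with adjusted p of 0.474, 0.303 and 0.0920 from limma. The values for L1Md_F3 were -0.08, -0.12 and -0.22, with adjusted p of 0.494, 0.300 and 0.0824 from limma. The difference to TOTAL passed with the replicate number as a block (adjusted p = 0.00537 for L1Md_F3 and 0.0138 for L1Md_F, from limma over all 12 libraries) and, for L1Md_F3, with subfamilies kept from a mean of 100 (0.0415). Same-numbered IP and TOTAL libraries did not deviate together, with 1 of 3 correlations over 0.1. In single libraries, the ratio of L1Md_F3 to L1Md_F2 lay between 0.166 and 0.173 in IP, between 0.175 and 0.185 in BO, between 0.183 and 0.185 in INPUT and between 0.194 and 0.202 in TOTAL. IP did not overlap with any other group in that ratio, but the difference to the other 9 libraries missed the threshold after adjustment (-0.14 on the log2 scale, exact permutation p = 0.00909091, adjusted 0.0571).

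Against the young families L1Md_A and L1Md_T, L1Md_Gf did not stand apart in IP as it did against the F names. The log2 ratio of L1Md_Gf to L1Md_T was -4.93 ± 0.10 (SD, n = 3) in IP and -4.95 ± 0.20 over the other 9 libraries, a difference of 0.03 (exact permutation p = 0.836). For the ratio to L1Md_A the difference was -0.07 (exact permutation p = 0.718). The other groups did not share 1 value of that second ratio, which was -4.42 ± 0.22 in BO and -5.02 ± 0.09 in INPUT (SD, n = 3 each), on either side of the -4.75 ± 0.14 in IP. The 3 F names together, in contrast, were lower in IP relative to L1Md_A, with a log2 difference of -1.47, and relative to L1Md_T, with -1.38 (exact permutation p = 0.00454545 for each, adjusted 0.0333). In IP they held fewer reads than L1Md_A in each library, whereas in each of the other 9 libraries they held more.

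**Figure D3:**
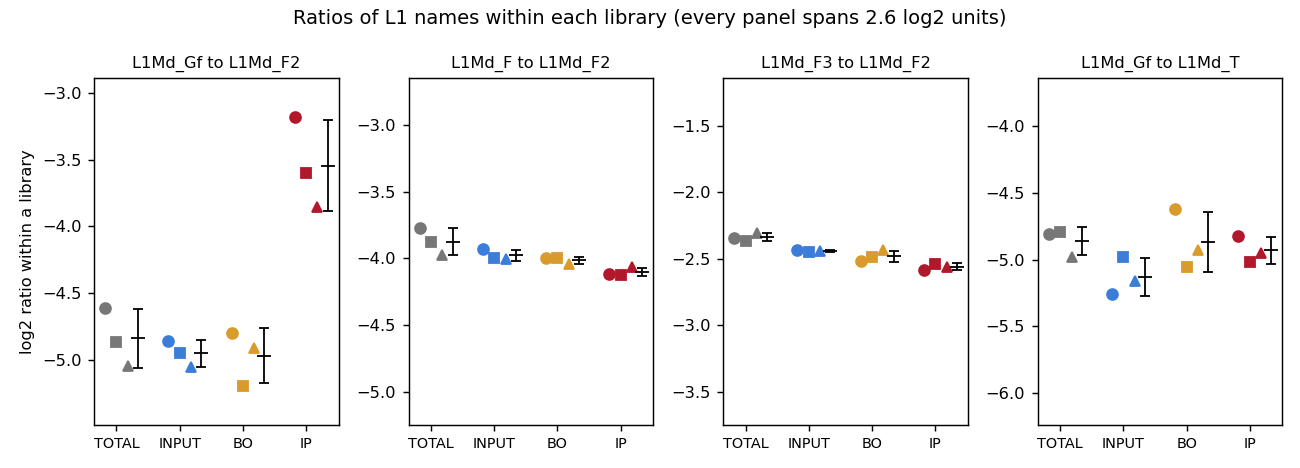
log2 ratio of reads within a library (vertical axis, each panel spanning the same range) for L1Md_Gf, L1Md_F and L1Md_F3 to L1Md_F2 and for L1Md_Gf to L1Md_T, with the mean ± SD of 3 libraries per group. The ratio of L1Md_Gf to L1Md_F2 is higher in IP than in all other libraries, whereas that of L1Md_Gf to L1Md_T overlaps between IP and the rest.

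Other L1 names were counted in the same fit. L1Md_A and L1Md_T were called higher in all 3 IP comparisons, 2 of 2. Of the 11 names of the L1_Mus, L1_Mur, L1_Mm and L1VL group and of the 21 Lx names, 0 were called in any of them, with log2 fold changes from -0.68 to 0.70. Of the 83 ancient L1M names, 1 was called higher in each IP comparison, and 2 were called lower in IP than in BO. The F names, at 0.47 to 0.56 in IP vs. BO, lay inside the range of the L1_Mus and related names (-0.62 to 0.70) and above that of the Lx names (-0.68 to 0.38). Against INPUT and TOTAL the highest Lx name stood at 0.70 and 0.53, and the F names lay inside the Lx range. The highest of the L1_Mus and related names stood at 0.65 and 0.27. L1Md_F2, at 0.67 and 0.39, lay above both, while L1Md_F and L1Md_F3 lay inside that range.

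The deposited locus tables give, per locus, the authors' mean in IP and in 1 other group, with no value per library. The authors' standard errors and tests per locus were not used, so the values of loci printed here carry no error and no test. Each table was scaled on its own, and the IP mean beside BO is lower than that beside INPUT or TOTAL. In the table of IP and BO, genes had a median log2 ratio of 0.77 (0.09 beside INPUT and -0.05 beside TOTAL). A locus that doubled against BO therefore moved only slightly more than the median gene. Of the L1Md_Gf loci, 48 (11.0%) were at 0 in all 4 groups, as were 136 of L1Md_F, 1958 of L1Md_F2 and 391 of L1Md_F3. A mean above 0 was listed in IP for 323 of the 435 L1Md_Gf loci, in TOTAL for 214, in INPUT for 220 and in BO for 169. For the 3 F names together, 8532 of 18010 loci were above 0 in IP, 6852 in TOTAL, 6781 in INPUT and 5259 in BO.

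Summed over its loci, L1Md_Gf had authors' means of 654 in IP and 229 in BO, a ratio of 2.85 or 1.51 on the log2 scale. The log2 ratio of these sums was 1.85 against INPUT and 1.71 against TOTAL. For L1Md_F it was 0.29 against BO, 0.72 against INPUT and 0.45 against TOTAL. L1Md_F2 gave 0.40, 0.91 and 0.69, and L1Md_F3 gave 0.38, 0.89 and 0.60, in the same order. L1Md_A gave 1.85, 1.70 and 1.78, and L1Md_T gave 1.70, 1.75 and 1.76. The loci of all other L1 names, the A and T families left out, gave -0.44, 0.20 and 0.08. The IP mean was above the BO mean at 289 L1Md_Gf loci and below it at 49, with both at 0 at 97. Among the F names it was above at 7086 loci, below at 3790 and both were at 0 at 7134. Over the other L1 loci it was above at 39567 and below at 35048, and over all LINE, SINE, LTR and DNA loci above at 255730 and below at 221451.

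The sum over loci came to between 30.0% and 36.1% of the subfamily mean for L1Md_Gf. For the F names it came to between 29.0% and 43.9%. Locus and subfamily values were scaled differently, so these percentages are not shares of reads. The IP sums used were those beside TOTAL (810 for L1Md_F), and the IP sums beside BO are lower (620 for L1Md_F). The percentages therefore cannot be compared between groups. The change of the ratio of G to F was smaller from locus sums, at 1.12 on the log2 scale against BO, 0.95 against INPUT and 1.04 against TOTAL, where the means of the subfamily table gave 1.48, 1.47 and 1.37. Whether the assignment of reads between near-identical copies differs with the group was not tested, and the share of reads placed on any 1 locus is uncertain for that reason.

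Few loci had enough reads for a value of their own. For IP against BO or INPUT, loci were kept by their mean in TOTAL, and for IP against TOTAL by their mean in INPUT. Only 3 L1Md_Gf loci reached a mean of 10 in TOTAL, as did 11 of L1Md_F, 102 of L1Md_F2 and 19 of L1Md_F3. Of these, 1, 2, 41 and 5 were past a doubling from BO to IP, against 17.5% of all repeat loci at that level. In the other direction 2, 3, 16 and 4 were past a halving, against 33.4% of all repeat loci. For L1Md_F2 the share past a doubling was 40.2%, and after centring on the median gene it was 17.6%, against 7.18% of all repeat loci centred likewise. Loci come from the same libraries and are not replicates, so these shares carry no interval. So centred, 18 L1Md_F2 loci were past a doubling and 27 (26.5%) past a halving, against 53.8% of all repeat loci past a halving. The median log2 ratio was 0.027 for L1Md_F2 and -1.15 for all repeat loci. With loci kept from a mean of 5, 7 L1Md_Gf loci remained beside BO and INPUT. From BO to IP, 2 were past a doubling (15.6% of all repeat loci) and 3 past a halving (30.8%). From INPUT, 1 was past a doubling (12.2% of all) and 1 past a halving (33.4%). Beside TOTAL, 3 of 6 were past a doubling (8.71% of all) and 2 past a halving (29.3%). With loci kept from a mean of 1, a level chosen after the data had been seen, 73 L1Md_Gf loci remained and 47 of them (64.4%) were past a doubling in IP vs. BO. The same held for 20 of 90 loci of L1Md_F (22.2%), 359 of 1539 of L1Md_F2 (23.3%), 51 of 261 of L1Md_F3 (19.5%) and 10.9% of all repeat loci. Beside INPUT, the counts were 41 of 73, 28 of 90, 402 of 1539 and 61 of 261, with 10.7% of all repeat loci. Beside TOTAL, they were 41 of 67, 16 of 71, 302 of 1319 and 56 of 221, with 9.37% of all repeat loci. At the same level, 62.5% of L1Md_A and 56.0% of L1Md_T loci were past a doubling in IP vs. BO.

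Sorted by the mean in TOTAL, which neither IP nor BO sets, the classes of L1Md_Gf loci differed in their ratio of IP to BO. The 221 loci listed at 0 in TOTAL had a summed mean of 129.5 in IP, 3.70 times that in BO, a log2 ratio of 1.89. The log2 ratio of sums was 1.93 for the 141 loci up to 1 and 2.43 for the 54 loci from 1 to 3. It was 0.99 for the 16 loci from 3 to 10 and -2.11 for the 3 loci above 10, classes too small to carry a trend. Both classes rested on the 3 loci L1Md_Gf_247, L1Md_Gf_248 and L1Md_Gf_249, without which the 15 loci left from 3 to 10 had a summed IP mean 2.84 times that in BO and the 1 locus left above 10 had 8.09 times its BO mean. Those 3 loci had the highest BO means of the family, so leaving them out had to raise these ratios. No locus of the F names was left out likewise. In L1Md_F the log2 ratio was 0.68, 1.03, 0.71 and 0.41 over the first 4 classes and -0.37 over the 11 loci above 10. L1Md_F2 stayed between 0.31 and 0.55 in all 5 classes, and L1Md_F3 between 0.14 and 0.62. Against INPUT the loci of L1Md_Gf gave 2.19, 1.94, 2.30, 1.29 and -0.71 in the 5 classes.

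**Figure D4:**
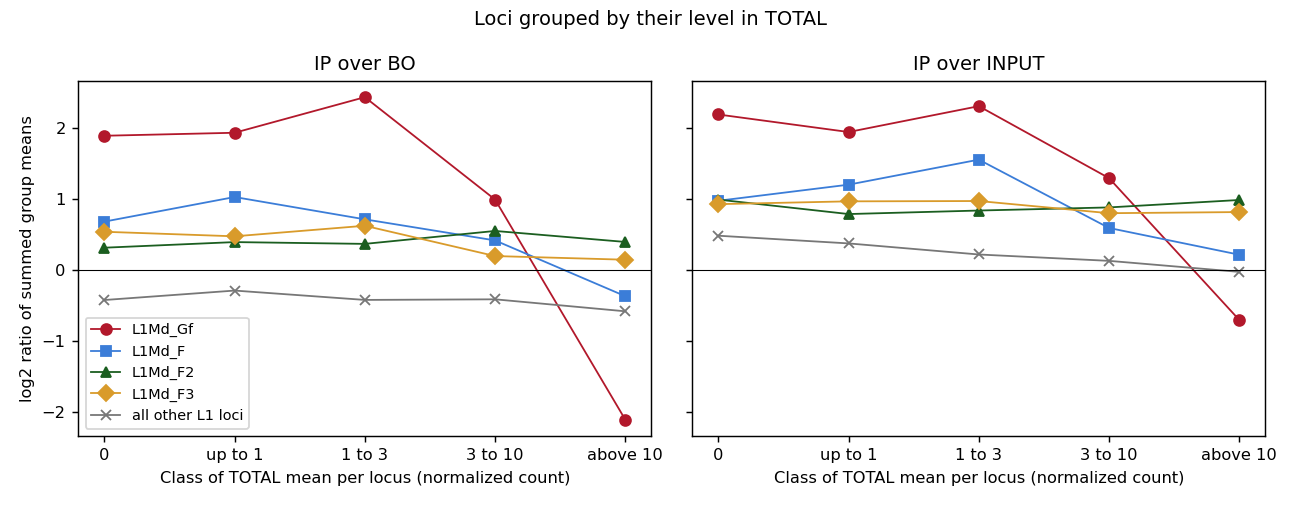
log2 ratio of summed group means, IP over BO and IP over INPUT (vertical axis), for loci classed by their TOTAL mean in normalized counts (horizontal axis), with 1 line per name. L1Md_Gf lies between 1.89 and 2.43 over BO in the 3 low classes and at -2.11 in the class of 3 loci above 10, of which 2 are L1Md_Gf_247 and L1Md_Gf_249, while L1Md_F2 stays between 0.31 and 0.55.

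The 10 L1Md_Gf loci with the highest TOTAL mean had a log2 ratio of summed IP to BO means of -0.92, whereas the remaining 425 had one of 2.06. Against INPUT these log2 ratios were 0.24 and 2.09. The low value of the 10 rested on L1Md_Gf_247, L1Md_Gf_248 and L1Md_Gf_249, without which the other 7 gave 1.82 against BO and 1.69 against INPUT. These loci had the highest BO means of the family, so leaving them out had to raise the ratio to BO. The splits of other names that follow left out no locus and cannot be set beside the value without them. For L1Md_F the 10 highest gave -0.41 and the rest 0.67 against BO. The same split of L1Md_F2 gave -0.20 and 0.49, and that of L1Md_F3 gave 0.0070 and 0.48. The same split, with single loci not looked at, gave 0.91 and 1.91 in L1Md_A, 0.85 and 1.72 in L1Md_T, -1.37 and -0.42 in the other L1 loci and -2.04 and -0.49 in all LINE, SINE, LTR and DNA loci.

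A set of 3 loci, L1Md_Gf_249, L1Md_Gf_247 and L1Md_Gf_248, had the 3 highest BO means of the family and was singled out after its values had been seen. Their authors' means in BO were 44.0, 18.2 and 11.1, and in the same table their IP means were 4.08, 2.46 and 1.60. In TOTAL the means were 17.4, 10.0 and 6.13, and in INPUT 23.3, 7.27 and 3.97. These loci were thus high on bare beads and low on antibody beads, and their identifier numbers follow each other. Together they held 32.0% of the summed L1Md_Gf mean in BO, 14.6% in INPUT, 12.8% in TOTAL and 1.23% in IP. Having been chosen for a high BO mean, the 3 loci had to be lower in IP relative to BO than most, and leaving them out had to raise the ratio of IP to BO wherever it is given without them. The highest BO loci of other names were not left out likewise.

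The highest IP means in L1Md_Gf stood at other loci. L1Md_Gf_912 had an authors' mean of 23.4 in IP beside 1.96 in BO, 30.7 beside 2.62 in INPUT and 30.5 beside 1.60 in TOTAL. Next came L1Md_Gf_347, with 13.2 in IP and 3.41 in BO, and L1Md_Gf_486, with 13.1 in IP and 4.43 in BO. The third locus with a TOTAL mean above 10 was L1Md_Gf_456, at 10.1 in TOTAL but 0.902 in INPUT. Its IP mean was 8.13 in the table with BO, 8.09 times its BO mean, and 10.6 beside TOTAL. No single locus carried the family in IP, since the highest held 3.57% of its summed IP mean. It took 41 loci to reach 50% of the sum in IP and 16 in BO.

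**Figure D5:**
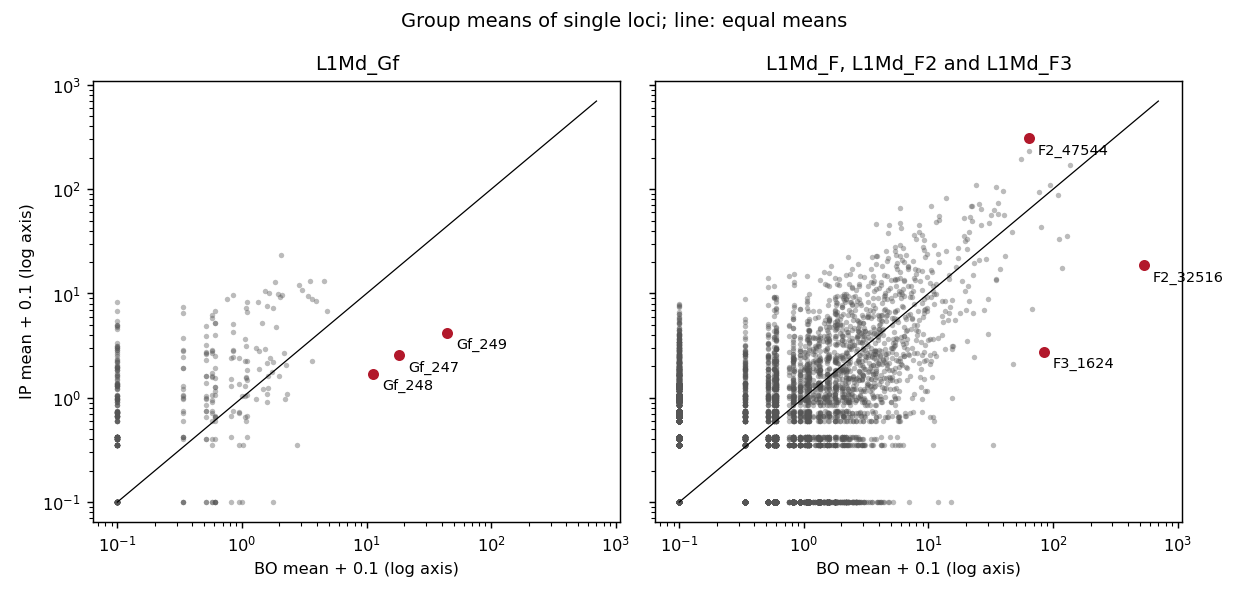
Authors' mean of each locus in BO (horizontal axis) and IP (vertical axis), both in normalized counts plus 0.1 on log axes, with L1Md_Gf left and the 3 F names right. Most L1Md_Gf loci with values lie above the line of equal means, and the 3 marked ones, at 11.1 to 44.0 in BO, lie below it.

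The 2 loci of L1Md_F with the highest TOTAL means had lower means in IP than in BO. L1Md_F_3033, the highest in TOTAL, had authors' means of 54.4 in TOTAL, 72.2 in INPUT, 79.5 in BO and 43.8 in IP beside BO. Its IP mean was 57.2 beside TOTAL and 57.4 beside INPUT. L1Md_F_3732 had 32.0 in TOTAL, 37.6 in INPUT, 41.1 in BO and 22.6 in IP. In contrast, L1Md_F_578 stood at 4.65 in BO and 37.7 in IP, and at 11.0 in INPUT. L1Md_F_1059 went the other way, with 23.1 in BO and 2.38 in IP. Single loci of the name therefore lay on either side, in a family that held 50% of its summed IP mean in 27 loci.

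L1Md_F2 held the highest single counts of the 4 names, in counts not corrected for the length of a locus. L1Md_F2_47544 had an authors' mean of 118.8 in TOTAL, 129.2 in INPUT, 63.6 in BO and 308 in IP beside BO. L1Md_F2_20138 stood at 64.3 in BO and 232 in IP, and L1Md_F2_44793 at 55.3 in BO and 193 in IP. The locus that led in TOTAL, L1Md_F2_32516, had 217 in TOTAL and 90.3 in INPUT, but 538 in BO and 18.6 in IP. It alone held 6.59% of the summed BO mean of L1Md_F2. L1Md_F2_33848 had 32.9 in BO and 0.249 in IP, and with L1Md_F2_32516 it had the lowest log2 ratios of IP to BO, taken on means plus 1, of the loci with a TOTAL mean of at least 10. At the other end, L1Md_F2_16706 had 3.72 in BO and 46.7 in IP, and L1Md_F2_52351 had 5.81 in BO and 66.5 in IP.

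In L1Md_F3, the leading locus L1Md_F3_5442 had an authors' mean of 102.0 in TOTAL, 79.4 in INPUT, 94.7 in BO and 110.3 in IP beside BO. L1Md_F3_1624 had its highest mean in BO, with 84.2 in BO, 27.9 in TOTAL, 10.1 in INPUT and 2.67 in IP. L1Md_F3_2031 had 27.5 in IP against 5.29 in BO, but 35.8 in IP against 36.0 in TOTAL. L1Md_F3_15674 had 36.5 in IP against 7.55 in BO and 47.6 against 18.1 in TOTAL. Beside TOTAL, where 13 L1Md_F3 loci reached a mean of 10 in INPUT, 0 were past a doubling (9.15% of all repeat loci at that level) and 3 past a halving (31.7%). At that level 35 of 91 L1Md_F2 loci, 2 of 9 of L1Md_F and 0 of 1 of L1Md_Gf were past a doubling. Past a halving were 10, 3 and 1 of them.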

How the data were processed

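Per the submitters' processing notes and the methods, the authors aligned reads to mm10 (STAR 2.6.0c), reassigned ambiguous reads with Telescope and summed them per repeat name. The deposited signal per subfamily and library is an upper-quartile normalized count. Every value was a whole multiple of 1 step within 0.1 read, which gave the reads. The deposited locus tables hold a signal (mean normalized count, DESeq2 1.24.0) per group. The authors' log2 fold changes, standard errors, test scores, p-values and adjusted p-values are also in these tables and were not used.

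The log2 of the count plus 1 was fitted with limma 3.58.1 (trend) in R 4.3.3 over the 12 libraries and 1180 subfamilies (mean of 10 or more), with Benjamini-Hochberg adjustment over all of them. Ratios to L1Md_F2 were fitted likewise, and single ratios were tested by two-sided exact permutation. Log2 ratios of single loci and counts past a doubling or halving used means plus 1, with loci kept by the mean in a group not compared. Ratios of sums, and values given as times a BO or INPUT mean, are plain ratios of means. The fit was tested on simulated data as a check of the code, with a spread set in advance and not taken from these libraries. The named loci of each name are the 3 highest in TOTAL, the 3 highest in IP and, among loci with a TOTAL mean of at least 10, the 2 highest and 2 lowest ratios of IP to BO. The members and lists were chosen with earlier results of these data known. Locus lengths, positions and open reading frames were not analysed here. Alternatives were other pseudocounts, filters, scalings and tools (edgeR 4.0.16, DESeq2 1.42.0), a replicate block and each library left out. Same-numbered libraries deviated together in INPUT and TOTAL (3 of 3 correlations over 0.1, a hint from the data and not from the labels), so blocked values stand beside that comparison. That hint does not show how replicates 2 and 3 pair.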

Additional observations from a re-analysis of the deposited data

How the results depend on the processing

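L1Md_Gf kept its call in the 3 IP comparisons under every alternative examined, as did its ratio to L1Md_F2. A replicate block in a fit of the compared groups only was examined for INPUT vs. TOTAL and not for the IP comparisons. The ratio of L1Md_Gf to the F names stayed higher in IP than in the other 9 libraries, the only comparison large enough to pass. That log2 difference ran from 1.22 to 1.56 with single libraries left out. Without an IP library, there are too few splits for its adjusted p to pass. With single libraries left out, the log2 fold change of L1Md_Gf ran from 1.72 to 2.21 against BO, 1.81 to 2.30 against INPUT and 1.42 to 1.91 against TOTAL. Scaling to library totals moved the median subfamily to 0.36, 0.47 and 1.49 and called F names, as it did 10.6%, 10.7% and 85.9% of all subfamilies. Then L1Md_F2 stood at 1.06 against BO, 1.21 against INPUT and 1.94 against TOTAL, L1Md_F at 1.09 against INPUT and 1.71 against TOTAL, and L1Md_F3 at 1.09 and 1.72. The same scaling reversed INPUT vs. TOTAL (L1Md_F3 0.62, L1Md_Gf 0.61, L1Md_F2 0.73, L1Md_F 0.62) and BO vs. TOTAL (0.74, 0.75, 0.88 and 0.74). With edgeR, BO vs. INPUT turned to -0.016 for L1Md_F3 and -0.011 for L1Md_F.

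With libraries left out, BO vs. INPUT ran from -0.0049 to 0.17 for L1Md_F3, -0.060 to 0.24 for L1Md_Gf and -0.016 to 0.19 for L1Md_F. The ratio of L1Md_Gf to L1Md_F2 ran from -0.22 to 0.0029 in INPUT vs. TOTAL and -0.10 to 0.10 in BO vs. INPUT. Replicate numbers paired INPUT with TOTAL but no other 2 groups by the rule that every pair correlates over 0.1 (8 of 18 in all, 9 of 18 best with their own number). Replicates 2 and 3 of INPUT and TOTAL also correlated across numbers, at 0.24 and 0.33. The replicate block over all libraries kept the ratios to L1Md_F2 in IP vs. TOTAL at -0.22 for L1Md_F3 and -0.23 for L1Md_F, now past the threshold (adjusted p = 0.00537 and 0.0138 from limma). A mean of at least 100 gave -0.22 for L1Md_F3 (adjusted p = 0.0415 from limma). From locus sums, the log2 change of the ratio of G to F from INPUT to IP was 0.95.

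The share of loci past a doubling in IP vs. BO was 0% for L1Md_F at a mean of at least 20, a count of 0 of 5 loci, too few to set against the 18.7% of all repeat loci. For L1Md_F2 it was 30.4% at a pseudocount of 5 (8.88% of all repeat loci), 57.8% centred on repeat loci or at 1.5-fold (24.9% and 25.6% of all), 17.6% centred on genes (7.18%), and 23.3% and 27.3% at means of at least 1 and 2 (10.9% and 13.1%). L1Md_F3 gave 52.6% centred on repeat loci or at 1.5-fold. Summed loci with a TOTAL mean above 10 reversed, at -2.11 (L1Md_Gf) and -0.37 (L1Md_F) against BO and -0.71 (L1Md_Gf) against INPUT. The L1Md_Gf class holds 3 loci, and without L1Md_Gf_247 and L1Md_Gf_249 the 1 left was 8.09 times its BO and 11.8 times its INPUT mean. The loci left out were chosen for high BO means, so the ratio to BO had to rise without them. The causes were not tested. Locus features with another length minimum were not run. Group means set the limit for loci, since no library could be left out.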
